A study of Mus musculus with 9 samples.

Results

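The transcripts described here are those of intraflagellar transport, the BBSome and the ciliary motors, 35 genes listed by name, with earlier results of these data known to whoever listed them: 6 genes of the IFT-B core, 5 of peripheral IFT-B, 6 of IFT-A, 8 of the BBSome and its recruiter, 4 that handle ciliary membrane cargo, 4 kinesin genes and 2 of dynein-2. All 35 were among 22136 gene rows of the kidney table, and all 35 were among the 15717 genes that entered the tests, whose minimum was a mean of 10 normalized counts. Apart from Kif17, described with the motors, the lowest group mean of any of them was 241 normalized counts (Bbs5, Pkd2 knockout).

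Intraflagellar transport (IFT) is the train system of the cilium, the antenna of tubulin that most kidney tubule cells carry on their apical surface. Kinesin-2 motors haul trains built from the IFT-B and IFT-A complexes toward the tip, dynein-2 brings them back, and the BBSome rides the trains as the adaptor that moves membrane proteins out of the cilium. Without IFT-B the cilium cannot be built. Loss of the polycystin PKD2 from tubules gives cystic kidneys, and removal of cilia together with a polycystin is known to slow that cyst growth in mice.

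Whole-kidney poly(A) RNA was compared in 3 groups of 3 C57BL/6 mice. Double knockout mice (DKO) carried Ift88fl/fl;Pkd2fl/fl;Pax8rtTA;TetO-cre, Pkd2 knockout mice (KO) carried Pkd2fl/fl;Pax8rtTA;TetO-cre, and the third group was labelled wild type (WT), with no allele or transgene given. All 9 mice, WT included, received doxycycline by mouth (2 mg/ml) over 2 weeks that began on postnatal day 28, and were killed 10 weeks after birth. Pax8-rtTA drives the cre in tubule epithelium, so vessels, stroma and immune cells of the same kidneys keep their floxed alleles intact, and reads from them are counted too. In such bulk RNA, fewer cells of a type and less RNA per cell cannot be told apart. The study's design text calls the replicates biological. Mouse names carry prefixes, whose meaning the labels do not give and which no 2 groups share. DKO 1 to 3 share a prefix, written with an added hyphen in DKO 3. KO 1 and KO 2 share another and KO 3 has its own, and WT 1 and WT 2 share another and WT 3 has its own.

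Normalized totals were 40384809 to 42802920 per library, corresponding to 36993769 to 47235872 recovered reads, and 9.22 to 10.8% of a library came from the mitochondrial genome. Markers of kidney segments were abundant, with proximal tubule markers summing to 637360 to 748358 normalized counts in a library. Pkd2 had 5181, 3777 and 5102 normalized counts in DKO kidneys and 4723, 5083 and 5549 in KO kidneys, against 13768, 14013 and 14505 in WT kidneys. It fell against WT in both mutant groups (log2 fold changes of -1.60 and -1.46, SE 0.12 for both, adjusted p = 0.000845 and 0.000973 by limma; the call in KO was lost with edgeR on 7 libraries, adjusted p = 0.0582). All log2 fold changes below come from the same limma fit to log2(normalized count + 1) with Benjamini-Hochberg adjustment over the 15717 genes, and a gene is said to rise or fall only at an adjusted p below 0.05.

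Levels within the machinery differed widely between genes when set per kilobase of the principal transcript. In WT kidneys the highest level was that of Arl3, a small GTPase that releases lipid-anchored cargo inside the cilium, at 1590 ± 25.1 normalized counts per kb (SD, n = 3). Ift20, which also works at the Golgi, followed at 1202 ± 142 per kb, then Dync2li1 (dynein-2 light intermediate chain) at 900 ± 60.1 per kb and Ift52 (IFT-B core) at 790 ± 31.7 per kb. The genes ranked 6 to 33 of the 35 ran from Ift122, an IFT-A gene with 684 ± 77.7 per kb, down to Arl13b, a GTPase of the ciliary membrane, with 141 ± 12.9 per kb. Below these stood the IFT-A gene Wdr19 at 84.9 ± 11.4 per kb and, far lower, Kif17 at 6.67 ± 2.57 per kb. Ift88, which ranked 13 of 35 in WT, had 244 ± 23.1 per kb in DKO kidneys, 369 ± 21.4 per kb in KO kidneys and 351 ± 13.3 per kb in WT kidneys.

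**Figure D1:**
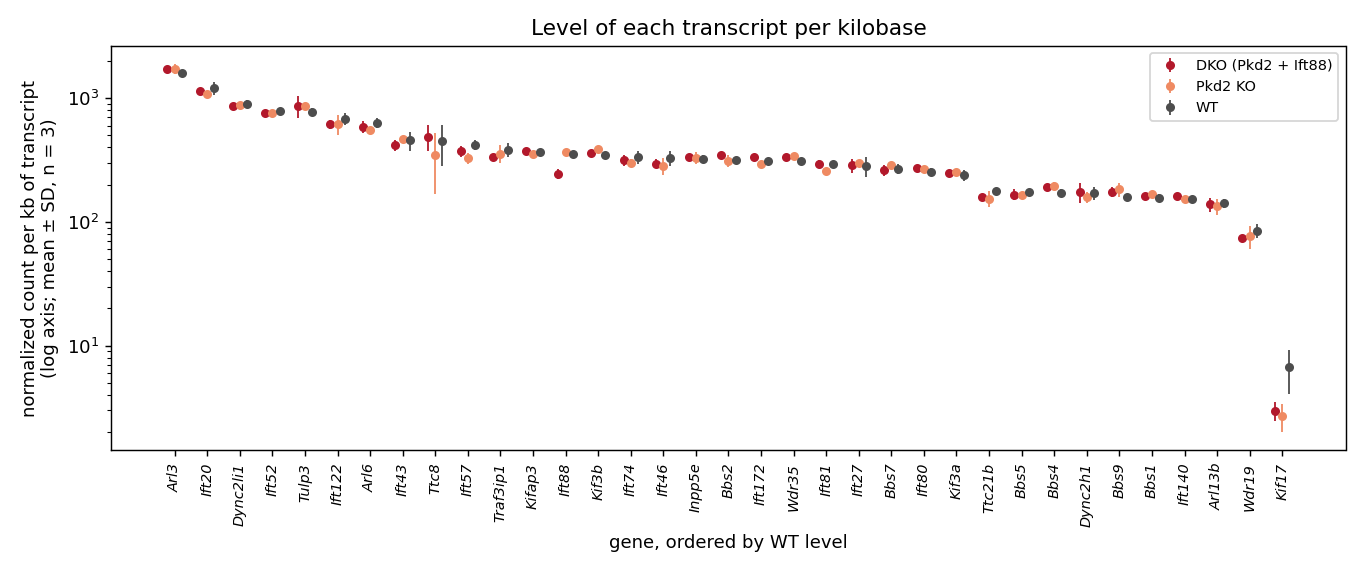
Normalized counts per kilobase of principal transcript (log axis) for the 35 genes, ordered by their WT level, as mean ± SD of 3 mice in DKO, KO and WT kidneys. The 3 groups lie on top of each other for most genes; Ift88 in DKO (244 per kb) stands below KO (369 per kb) and WT (351 per kb), and Ttc8 has the widest bars.

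Few of the 35 transcripts passed the test. DKO against KO sets deletion of both genes in the same doxycycline course against deletion of Pkd2 alone. It gave 1 fall and 0 rises among the 35 genes, the fall being Ift88 itself, while 0.394% of all genes tested were called (0.127% higher and 0.267% lower). There 3 members, Ift88, Ift81 and Ift172, had an unadjusted p below 0.05 (10.7% of all genes). DKO against WT gave 0 calls with limma, where 0.229% of all genes were called (0.0764% higher and 0.153% lower). Of the members 2, Ift88 and Kif17, had an unadjusted p below 0.05 (11.7% of all genes), DESeq2 on 9 libraries called 1 (Ift88), and DESeq2 on 7 libraries and edgeR on 7 or 9 called 0. KO against WT gave 0 calls with limma, where 2.4% of all genes were called (1.15% higher and 1.25% lower). Of the members 3, Ift57, Ift81 and Kif17, had an unadjusted p below 0.05 (18% of all genes), and edgeR and DESeq2, on 7 or on 9 libraries, called 0. The 3 comparisons share mice with each other, so they are not independent.

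The differences were also small in size. The median absolute log2 difference over the 35 genes was 0.06 for DKO against KO, 0.10 for DKO against WT and 0.11 for KO against WT, beside 0.12, 0.14 and 0.16 over all genes tested. For 32 of the 35 genes in each comparison (91.4%) the whole 95% interval lay within a 1.5-fold difference in either direction, which held for 60.6, 59.6 and 57.3% of all genes tested. The interval lay within a 2-fold difference for 34 members in DKO against KO and for 33 in each comparison with WT. Replicates of these genes were close: the median SD within a group was 0.115 on the log2 scale, beside 0.178 over all genes. All genes tested include genes down to a mean of 10 normalized counts, and they were not matched to the members by level. Whether the members differ in size of change, interval or SD from genes of like level was therefore not tested. Signed medians were 0.02, 0.00 and -0.06, beside 0.00 over all genes in each comparison. Means were lower in KO than in WT for 21 of the 35 genes (60% of members and 49.2% of all genes).

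**Figure D2:**
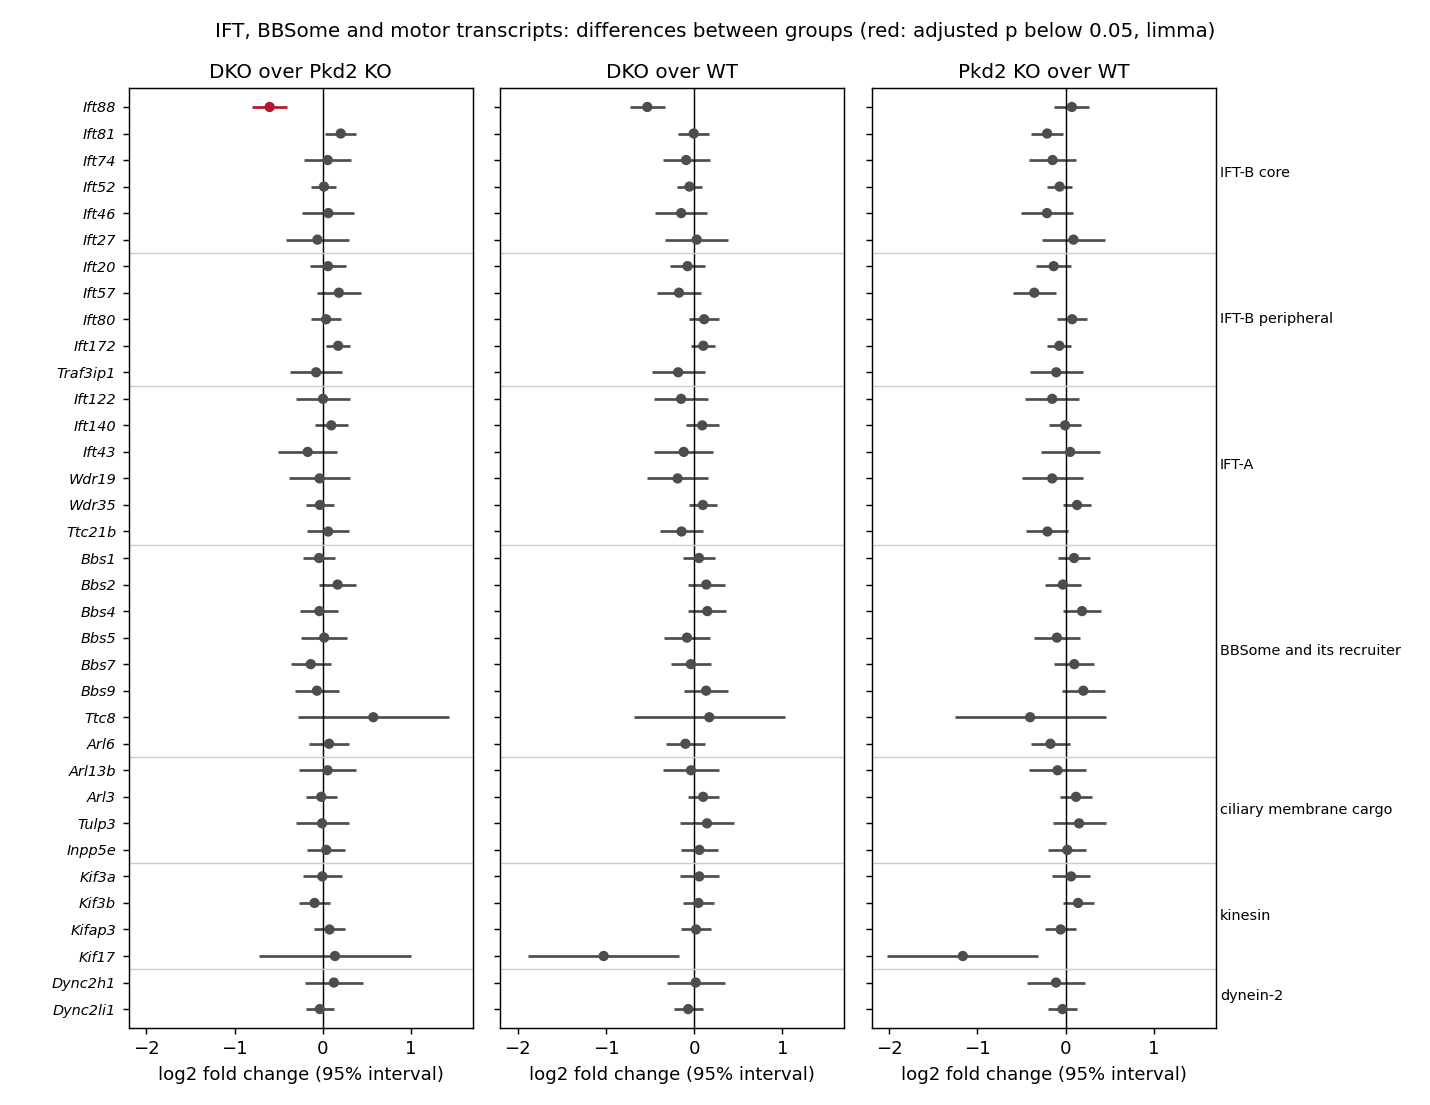
Log2 fold change (points) with its 95% interval from limma (lines) for each gene in the 3 comparisons, grouped by complex. Ift88 in DKO over KO (-0.60) is the point with an adjusted p below 0.05; most other intervals cross 0 and are narrow, and those of Ttc8 and Kif17 are wide.

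Ift88, the tetratricopeptide-repeat subunit of the IFT-B core that was deleted in DKO mice, lies on chromosome 14 (chr14:57424062-57517936, plus strand, GENCODE M21 on GRCm38). It had 735, 691 and 831 normalized counts in DKO kidneys, 1121, 1086 and 1214 in KO kidneys and 1132, 1067 and 1056 in WT kidneys. The 3 DKO mice lay below the other 6 mice, and KO and WT overlapped. DKO kidneys kept 66.0% of the KO mean and 69.3% of the WT mean (752 ± 71.4, against 1140 ± 66.0 in KO and 1085 ± 41.0 in WT, SD, n = 3 each). Against KO the fall was -0.60 ± 0.09 on the log2 scale (SE; 95% interval -0.80 to -0.40; adjusted p = 0.0358), and against WT the difference was -0.53 ± 0.09 (-0.73 to -0.33; adjusted p = 0.0617). KO against WT differed by 0.07 (-0.13 to 0.27). Since exons that cre leaves in place still give reads, this level does not measure how many cells kept the gene.

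The Ift88 call against KO was lost without DKO 1, DKO 2, KO 1, KO 2, WT 1 or WT 2 (adjusted p = 0.109, 0.117, 0.121, 0.125, 0.0642 and 0.0698 by limma), with little change in the fold (-0.54 to -0.68 over the 9 fits that leave out 1 mouse). It was also lost with only these 2 groups in the fit (adjusted p = 0.0957) and with edgeR on 7 libraries (0.18). Against WT, Ift88 was called without DKO 3 (adjusted p = 0.0449 by limma), with array quality weights (0.00917) and with DESeq2 on 9 libraries (6.33e-05).

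Set against its partners, Ift88 shifted in proportion as well. Its ratio to the geometric mean of the other 5 IFT-B core genes was 0.864, 0.853 and 1.07 in DKO kidneys, 1.48, 1.38 and 1.52 in KO kidneys and 1.31, 1.25 and 1.30 in WT kidneys. The DKO mice lay below all 6 others, and the KO mice lay above the WT mice. The higher ratio in KO sat beside lower means of 4 of those 5 partners in KO than in WT, none of which passed the test.

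**Figure D3:**
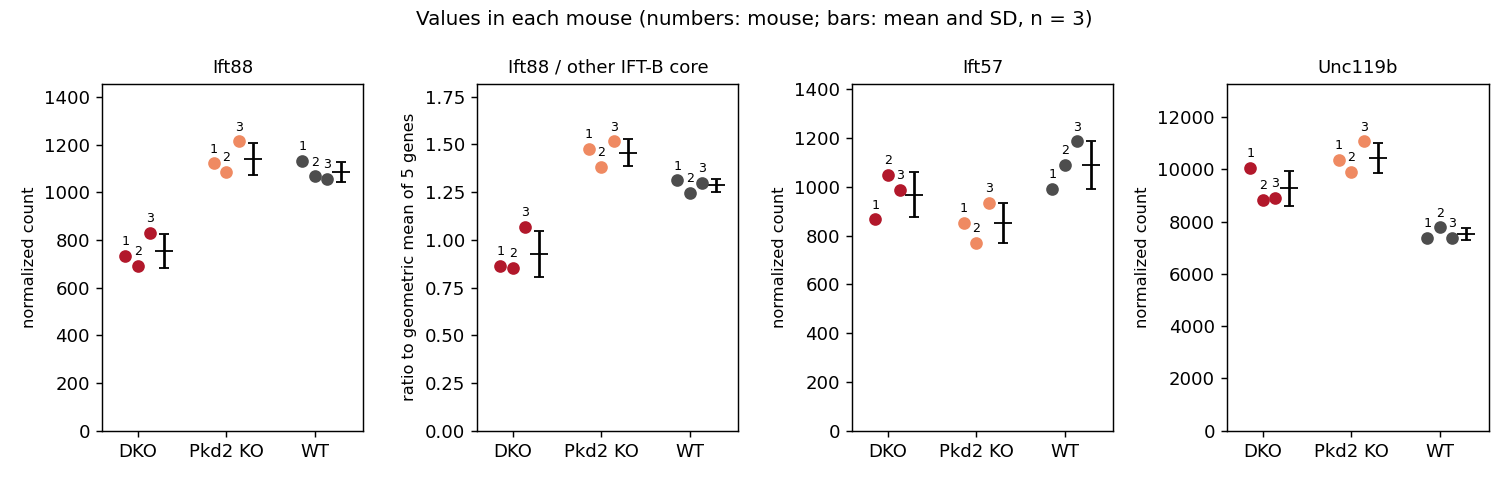
Values in each mouse (points, numbered by mouse) with mean ± SD of 3 mice, for Ift88, for the ratio of Ift88 to the geometric mean of the 5 other IFT-B core genes, for Ift57 and for Unc119b. Ift88 is 691 to 831 normalized counts in DKO, 1086 to 1214 in KO and 1056 to 1132 in WT; Unc119b is lowest in WT.

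The rest of the IFT-B core moved little. Ift81, which binds tubulin cargo together with Ift74, had 851, 826 and 936 normalized counts in DKO kidneys, 711, 780 and 775 in KO kidneys and 886, 859 and 874 in WT kidneys. Its KO values lay below both other groups, with no call (DKO over KO 0.20 ± 0.08, adjusted p = 0.377; KO over WT -0.21 ± 0.08, adjusted p = 0.209, limma). Ift74, Ift52, Ift46 and Ift27, the small GTPase of the core, had overlapping groups in all 3 comparisons, with log2 differences between -0.21 (Ift46, KO over WT) and 0.09 (Ift27, KO over WT). Ift52 had the smallest highest-to-lowest ratio of the 35 genes over the 9 mice, 1.14 (1634 to 1856 normalized counts). By SD within a group the smallest was that of Ift172 (0.039 on the log2 scale, beside 0.046 for Ift52).

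Among peripheral IFT-B genes, Ift57, also called Hippi, had 867, 1048 and 988 normalized counts in DKO kidneys, 851, 770 and 936 in KO kidneys and 993, 1090 and 1187 in WT kidneys. All KO mice lay below all WT mice, and DKO overlapped both. The KO over WT difference was -0.36 ± 0.11 (95% interval -0.60 to -0.11), the largest in size of KO against WT after Kif17 and Ttc8, and it did not pass (adjusted p = 0.131, limma). Ift172, the largest IFT-B subunit, had 1778, 1878 and 1765 normalized counts in DKO kidneys, 1650, 1592 and 1561 in KO kidneys and 1680, 1656 and 1706 in WT kidneys. Its 3 groups did not overlap, in the order DKO, WT, KO, yet the spans were narrow and no comparison was called (DKO over KO 0.17 ± 0.06, adjusted p = 0.314; DKO over WT 0.10, adjusted p = 0.553; KO over WT -0.07, adjusted p = 0.577). Ift20 had 1253, 1279 and 1358 normalized counts in DKO kidneys, 1254, 1230 and 1246 in KO kidneys and 1300, 1258 and 1557 in WT kidneys. Its KO values lay below WT, and DKO overlapped both (KO over WT -0.13 ± 0.09, adjusted p = 0.457). Ift80 and Traf3ip1, known as IFT54, overlapped between groups.

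Ciliary genes are known targets of RFX transcription factors, which bind an inverted repeat called the X-box, and the promoters were read for it as a feature that the choice of genes did not use. Promoters of 250 bases before to 50 after the start were taken from RefSeq (GRCm38.p6) for 31 of the 35 genes, not counting Ift122, Ift80, Dync2li1 and Ift81. The letters GTTNCC, then 0 to 3 bases, then GGNAAC, which read the same on both strands, were present for 2 of the 31 genes (6.45%), Ift57 and Bbs7, against 0.936% of all genes and 0.804% of the 32851 promoters of the table. The looser GTNNCC and GGNNAC with the same spacing, which includes the first motif, was present for 5 of 31 (16.1%; Bbs1, Bbs4, Bbs7, Ift57 and Wdr19), against 4.38% of all genes and 3.86% of promoters. A match is a description of the letters and not of binding, and no match says only that these letters are not in this window. The stretches of the 2 genes with the stricter match are shown with each match in capitals, read 5′ to 3′ on the strand of the gene (Ift57, chr16:49699177-49699246, plus strand; Bbs7, chr3:36613478-36613540, minus strand). In Ift57 the first run in capitals, at -87 to -74 relative to the start, fits the looser letters alone, and the second, at -60 to -48, fits the stricter ones. The start used here is that of RefSeq; GENCODE M21 starts Ift57 farther upstream, so that the last 14 bases shown, the stricter match among them, lie inside the gene as GENCODE M21 draws it. In Bbs7 the match runs from -121 to -108.
Ift57: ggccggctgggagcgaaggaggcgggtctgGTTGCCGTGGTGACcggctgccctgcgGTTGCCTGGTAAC
Bbs7: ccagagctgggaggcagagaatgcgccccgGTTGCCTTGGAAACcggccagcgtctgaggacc

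The transcripts of the 2 genes did not share a pattern between groups: Bbs7 had 678, 651 and 791 normalized counts in DKO kidneys, 775, 764 and 781 in KO kidneys and 801, 678 and 692 in WT kidneys, and these groups overlapped in all 3 comparisons. Of transcription factor genes, 7 were listed by name (6 RFX genes and Foxj1) and 6 were tested. Whether each of them, Rfx7 included, acts on ciliary genes in the kidney was not tested. Limma called 0 of the 6 in any comparison, with 0, 1 and 0 at an unadjusted p below 0.05 in DKO against KO, DKO against WT and KO against WT, and edgeR and DESeq2 called 0. Rfx7, the most abundant, had 1641, 1587 and 1531 normalized counts in DKO kidneys, 1441, 1484 and 1618 in KO kidneys and 1394, 1311 and 1378 in WT kidneys, with WT below both mutant groups (DKO over WT 0.22, adjusted p = 0.284).

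IFT-A carries membrane cargo into the cilium and drives the return journey. Wdr35, one of its peripheral subunits, had 1540, 1490 and 1455 normalized counts in DKO kidneys, 1488, 1510 and 1585 in KO kidneys and 1436, 1452 and 1302 in WT kidneys. Both mutant groups lay above WT by a small step (DKO over WT 0.10 ± 0.07, adjusted p = 0.632; KO over WT 0.13 ± 0.07, adjusted p = 0.36, limma). Ttc21b, another peripheral subunit, went the other way in DKO, with 734, 683 and 731 normalized counts against 804, 810 and 758 in WT kidneys (-0.14 ± 0.11, adjusted p = 0.646). In KO kidneys it had 621, 645 and 804, which overlapped WT through KO 3. The other 4 IFT-A genes (Ift122, Ift140, Ift43 and Wdr19) overlapped between groups, with log2 differences from -0.19 (Wdr19, DKO over WT) to 0.10 (Ift140, DKO over KO).

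Of the BBSome subunits, Bbs2 had 1076, 1037 and 1089 normalized counts in DKO kidneys, 851, 945 and 1063 in KO kidneys and 980, 917 and 1013 in WT kidneys. DKO lay above WT without overlap (0.14 ± 0.09, adjusted p = 0.609). Bbs9, a scaffold of the complex, had 566, 592 and 672 normalized counts in DKO kidneys, 605, 582 and 732 in KO kidneys and 551, 567 and 542 in WT kidneys. KO lay above WT without overlap, and DKO overlapped both (KO over WT 0.20 ± 0.11, adjusted p = 0.369). Arl6, the GTPase that recruits the BBSome to membranes, had 911, 966 and 1116 normalized counts in DKO kidneys, 928, 927 and 983 in KO kidneys and 1032, 991 and 1181 in WT kidneys. KO lay below WT without overlap, and DKO overlapped both (KO over WT -0.17 ± 0.10, adjusted p = 0.398). Bbs1, Bbs4, Bbs5 and Bbs7 overlapped between groups in all 3 comparisons, within -0.14 to 0.19 on the log2 scale. Of the 4 cargo genes, Arl3 had 1515, 1424 and 1381 normalized counts in DKO kidneys, 1456, 1335 and 1585 in KO kidneys and 1331, 1326 and 1365 in WT kidneys. DKO lay above WT without overlap, and KO overlapped both (DKO over WT 0.10 ± 0.08, adjusted p = 0.662). Arl13b, Tulp3, which delivers receptors to the cilium, and Inpp5e, the lipid phosphatase of the ciliary membrane, overlapped between groups.

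The kinesin-2 genes that drive the outward train were steady. Kif3a, Kif3b and their adaptor Kifap3 had overlapping groups in all 3 comparisons, with log2 differences from -0.09 to 0.14, and over the 9 mice they ranged from 695 to 846, 1882 to 2279 and 1354 to 1571 normalized counts. The dynein-2 heavy chain Dync2h1 (1970 to 2813) and Dync2li1 (1132 to 1297) overlapped between groups as well. Kif17, a homodimeric kinesin-2 that enters cilia but is not needed to build most of them, was near the lower limit of the table. It had 11.2, 8.16 and 11.5 normalized counts in DKO kidneys, 6.95, 9.34 and 11.7 in KO kidneys and 30.1, 25.9 and 13.1 in WT kidneys. Both mutant groups lay below WT, with WT 3 close to them, and neither difference passed (DKO over WT -1.03 ± 0.38, adjusted p = 0.339; KO over WT -1.17 ± 0.38, adjusted p = 0.152, limma). Kif17 passed the minimum mean of 10 through the WT group (means of 10.3 in DKO, 9.33 in KO and 23.0 in WT). It overlaps Sh2d5 on the same strand, so how reads from the stretch that both genes cover were assigned is uncertain.

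Counted over the 35 genes, the share whose groups did not overlap stood near or below that over all genes tested. DKO and KO did not overlap for 3 members (8.57%; 15.2% of all genes), with Ift88 lower and Ift81 and Ift172 higher. DKO and WT did not overlap for 7 members (20%; 18.3% of all genes), with Ift172, Bbs2, Wdr35 and Arl3 higher and Ift88, Kif17 and Ttc21b lower. KO and WT did not overlap for 8 members (22.9%; 25.2% of all genes), with Wdr35 and Bbs9 higher and Ift57, Ift81, Ift172, Ift20, Arl6 and Kif17 lower.

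**Figure D4:**
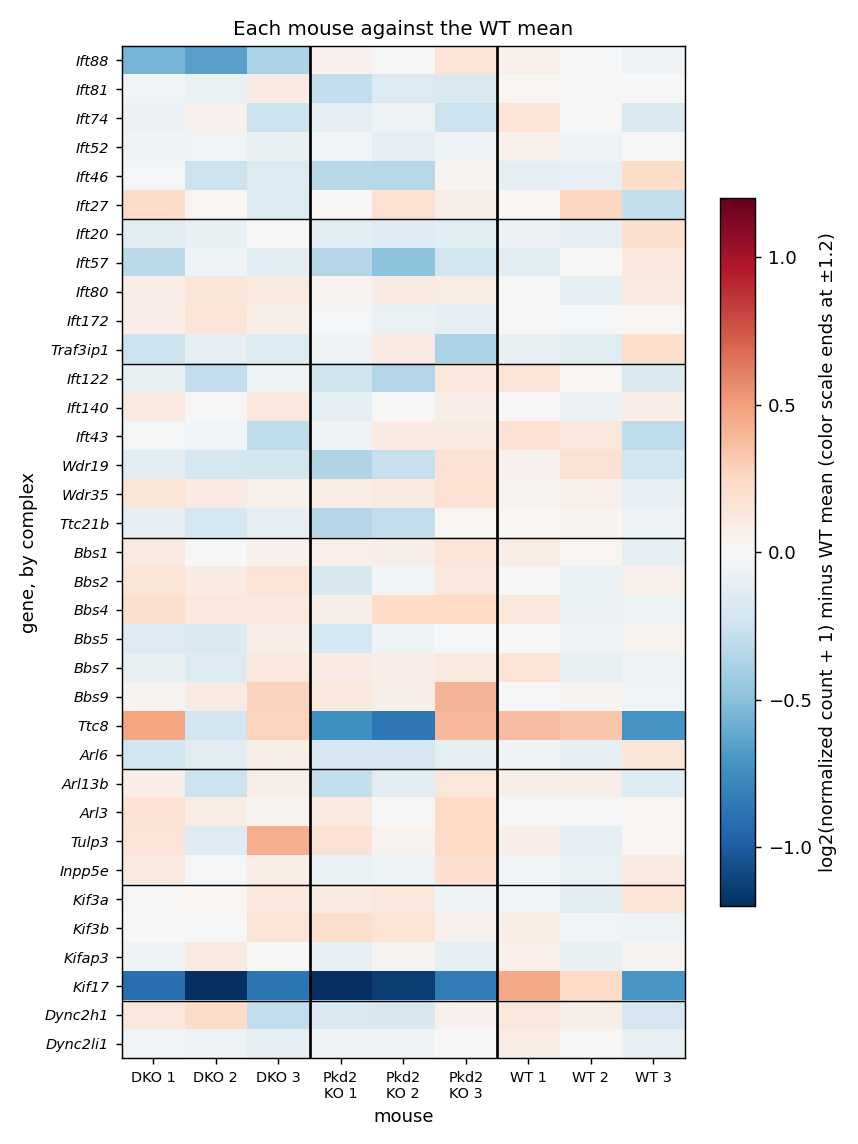
Each of the 35 genes (rows, by complex) in each of the 9 mice (columns), as log2(normalized count + 1) minus the WT mean (color scale ends at ±1.2). Ift88 is blue in the 3 DKO mice, Kif17 is blue in the 6 mutants and in WT 3, and Ttc8 is blue in DKO 2, KO 1, KO 2 and WT 3.

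Ttc8 (BBS8), a BBSome subunit, varied more between mice of a group than between genotypes. It had 1334, 822 and 1160 normalized counts in DKO kidneys, 579, 529 and 1258 in KO kidneys and 1246, 1210 and 590 in WT kidneys. KO 1, KO 2 and WT 3 were low, DKO 2 lay between, and KO 3 stood with WT 1 and WT 2. The highest value was 2.52 times the lowest, and its intervals were the widest of any member together with those of Kif17 (KO over WT -0.40, 95% interval -1.26 to 0.46, adjusted p = 0.618; DKO over KO 0.57, -0.28 to 1.43, adjusted p = 0.69). KO 3 and WT 3 each carry a name prefix different from that of their group mates. KO 3 also had the highest Ttc8 value of the KO mice and WT 3 the lowest of the WT mice. Without both of them Ttc8 was called lower in KO than in WT (-1.15, adjusted p = 0.0404, limma). Leaving out these 2 makes such a call likely, and prefix and genotype cannot be told apart among the KO and WT mice that remain.

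Eml5, the gene next to Ttc8 on chromosome 12, which overlaps Zc3h14 at its other end, had 2717, 1600 and 2971 normalized counts in DKO kidneys, 1879, 1607 and 3451 in KO kidneys and 2540, 2570 and 1338 in WT kidneys. DKO 2, KO 1, KO 2 and WT 3 had the 4 lowest values of both genes. Of the 8 tested genes within 1 Mb of Ttc8, groups did not overlap for 2 in DKO against KO, 1 in DKO against WT and 3 in KO against WT. Over all genes tested the shares were 15.2, 18.3 and 25.2%. Eml5 was not among the neighbours without overlap. Genes of the Serpina1 cluster, which holds the alpha-1-antitrypsin genes, lie 4.70 to 4.91 Mb away on the same chromosome and were looked at after their values had been seen. Serpina1f had 7311, 5323 and 7444 normalized counts in DKO kidneys, 2958, 1743 and 7148 in KO kidneys and 6231, 6142 and 3330 in WT kidneys. Serpina1a had 1399, 420 and 819 in DKO kidneys, 129, 15.9 and 1201 in KO kidneys and 825, 864 and 14.2 in WT kidneys. Both were low in KO 1, KO 2 and WT 3, and both had their lowest DKO value in DKO 2. Genes of this cluster are copies of one another, so how reads were split between them is uncertain. Whether these values follow the name prefixes was not tested.

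**Figure D5:**
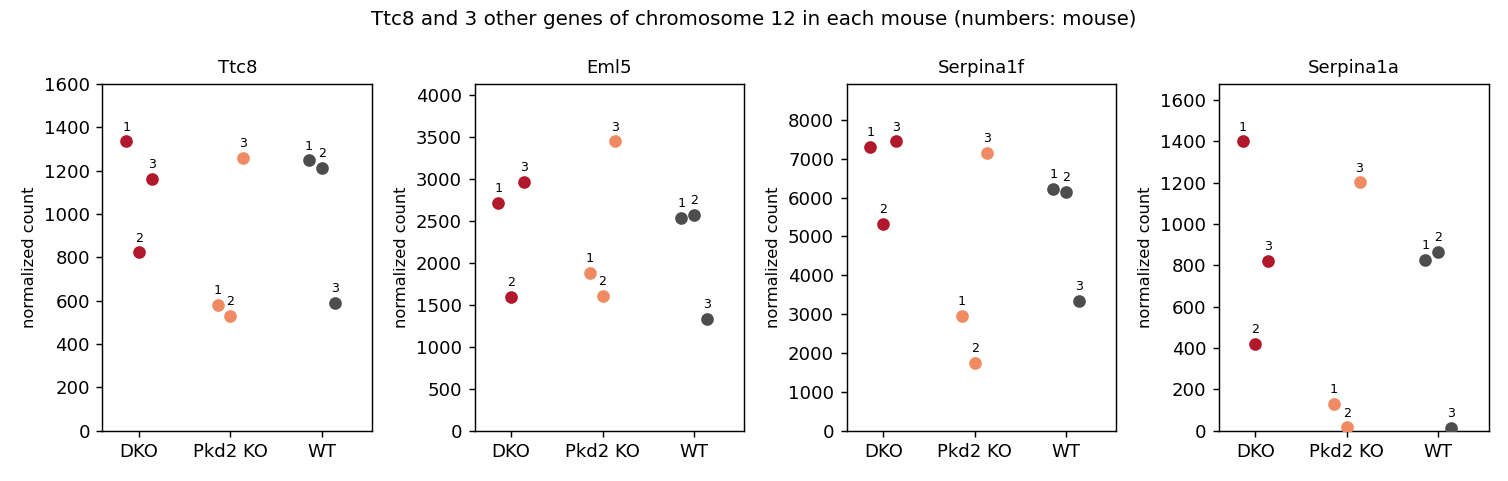
Normalized counts in each mouse (points, numbered by mouse) for Ttc8, its neighbour Eml5, and Serpina1f and Serpina1a farther along chromosome 12, in DKO, KO and WT kidneys. In all 4 genes KO 1, KO 2 and WT 3 are below KO 3, WT 1 and WT 2, so the points do not sort by genotype.

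KO 3 and WT 1 also stood out over the gene set. KO 3 had the highest value of its group for 23 of the 35 genes (65.7%), beside 40.2% of all genes tested, and WT 1 the lowest of its group for 2 (5.71%), beside 27.6% of all genes. Array quality weights, which let a library count less the farther it lies from its group, gave KO 3 and WT 3 the lowest weights (0.364 and 0.318) and WT 1 the highest (2.60). With these weights 7 members were called lower in KO than in WT (Ift81, Ift57, Ift122, Wdr19, Ttc21b, Ttc8 and Kif17) and 0 higher. The 7 are 20% of the members, beside 20.5% of all genes tested that were called with these weights in either direction (9.65% lower and 10.8% higher). Among the 7, Kif17 passed the minimum mean through the WT group, and Ttc8 varied more between mice of a group than between genotypes.

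The wider ciliary machinery was read from a list of 28 more genes, the remaining IFT and BBSome subunits, BBS chaperones, dynein-2 chains, kinases and carriers of lipid-anchored cargo, of which 27 were tested. Limma called 0 of them in DKO against KO and 0 in DKO against WT (0.394 and 0.229% of all genes). There 1 and 5 had an unadjusted p below 0.05 (10.7 and 11.7% of all genes), edgeR called 0, and DESeq2 on 9 libraries called 0 and 1. In KO against WT 1 rose and 0 fell (1.15 and 1.25% of all genes), with 4 at an unadjusted p below 0.05 (18% of all genes). Medians over the list were -0.02, 0.00 and -0.04, beside 0.00 over all genes. The gene that rose was Unc119b, whose protein carries myristoylated cargo to the cilium until Arl3 releases it. It had 10057, 8836 and 8905 normalized counts in DKO kidneys, 10350, 9907 and 11063 in KO kidneys and 7383, 7773 and 7366 in WT kidneys. All 6 mutant values lay above WT (KO over WT 0.47 ± 0.07, adjusted p = 0.0157; DKO over WT 0.30 ± 0.07, adjusted p = 0.165, limma), and DKO and KO overlapped (-0.17). The KO call was lost without KO 1, WT 1 or WT 2 (adjusted p = 0.066, 0.0712 and 0.0611) and with edgeR on 7 libraries (0.238). With array quality weights 2 genes of the list were called higher and 3 lower in KO against WT (10.8 and 9.65% of all genes). These weights also gave 1 higher in DKO against WT (0.916% of all genes).

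Kinases and other proteins that take the cilium apart as cells enter the cycle formed a list of 7. In KO against WT 2 of the 7 rose and 0 fell with limma (1.15 and 1.25% of all genes), with a list median of 0.05. DESeq2 called 1 higher and 1 lower on 7 libraries, and 3 higher and 1 lower on 9. Counts with edgeR were 0 on 7 libraries, and 1 higher and 0 lower on 9. Nedd9 was lower in KO than in WT without overlap and did not pass (-0.43, adjusted p = 0.0556, limma). In DKO against KO and DKO against WT limma called 0, with 5 and 1 at an unadjusted p below 0.05. DESeq2 on 9 libraries called 2 and 0 there. Aurka (Aurora A) had 34.6, 64.3 and 66.1 normalized counts in DKO kidneys, 99.3, 135 and 99.4 in KO kidneys and 31.1, 38.3 and 46.8 in WT kidneys (KO over WT 1.50 ± 0.29, adjusted p = 0.0339). Plk1 (Polo-like kinase 1) had 30.5, 28.1 and 60.4 in DKO kidneys, 95.3, 109 and 120 in KO kidneys and 51.2, 29.3 and 27.2 in WT kidneys (KO over WT 1.62 ± 0.34, adjusted p = 0.0443). KO lay above both other groups for both genes. The Aurka call was lost without KO 1, KO 2, KO 3, WT 1 or WT 2 (adjusted p = 0.0517 to 0.127), and the Plk1 call without DKO 1 or any 1 of the KO or WT mice (0.0608 to 0.148). With edgeR on 7 libraries neither was called (0.292 and 0.194), nor with limma after quantile normalization (0.0552 and 0.0515) or without WT 3 and KO 3 together (0.0523 and 0.117). The Aurka call was also lost with DESeq2 on 7 libraries (0.0738). The Plk1 call was also lost with no filter on low values (0.0538, limma), the replicate block (0.0849, limma) and edgeR on 9 libraries (0.055). Both genes also serve mitosis in dividing cells.

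Markers of some of the cells present differed between the groups. Over all genes tested, 1.15% rose and 1.25% fell in KO against WT, and 0.267% fell in DKO against KO. Of 12 mitosis markers, 10 rose in KO against WT and 5 fell in DKO against KO (8 to 11, and 0 to 6, when 1 mouse was left out), and their summed level was 797 to 1576 normalized counts in DKO, 3208 to 4026 in KO and 654 to 861 in WT kidneys. The 6 of lowest adjusted p in KO against WT were Ccna2 and Ccnb2 (cyclins), Top2a (a topoisomerase of dividing cells), Cdk1 (the mitotic kinase), Mki67 (the Ki-67 antigen) and Ube2c (which marks proteins for removal as mitosis ends), with log2 fold changes of 2.05 to 2.77. The 5 that fell in DKO against KO were Ccna2, Top2a, Mki67, Cdk1 and Ccnb2, by -1.54 to -2.02. Of 8 thick ascending limb markers, 5 fell in KO against WT (1 to 5 when 1 mouse was left out), with sums of 227553 to 297199 in DKO, 172933 to 210225 in KO and 362591 to 381245 in WT kidneys. The 5 were Egf (epidermal growth factor, -1.10), Slc12a1 (the NKCC2 cotransporter, -0.87), Ptger3 (a prostaglandin receptor, -0.61), Ppp1r1a (a phosphatase inhibitor, -0.83) and Umod (uromodulin, -0.91). Leaving out WT 2 left 1 thick ascending limb call, leaving out KO 1 left 2, and leaving out KO 2 or WT 1 left 3. The mitosis count of DKO against KO was 0 without DKO 2, KO 1 or KO 2, 1 without DKO 1, 2 without WT 2 and 3 without WT 1. With edgeR on 7 libraries these counts were 1, 0 and 0 for mitosis in KO against WT, mitosis in DKO against KO and thick ascending limb in KO against WT. Of 5 tested markers of multiciliated cells, whose motile cilia also use IFT, limma, edgeR and DESeq2 called 0 in each comparison, with 0, 1 and 1 at an unadjusted p below 0.05. The 9 listed summed to 343 to 403 in DKO, 347 to 498 in KO and 331 to 483 in WT kidneys, and Foxj1, their master regulator, had 2.04 to 32.7. Beyond these lists, limma called Miox lower (-0.66) and Slc5a12 higher (1.04) among 10 proximal tubule markers and Atp6v1g3 lower (-0.58) among 9 collecting duct markers in KO against WT, and Col1a1 lower (-2.06) among 9 fibroblast markers in DKO against KO. In the other comparisons limma called 0 of these 3 lists, with 0 to 4 at an unadjusted p below 0.05, and 0 of the thick ascending limb markers in DKO against KO and against WT (5 and 6 at an unadjusted p below 0.05; 3 and 3 by DESeq2 on 9 libraries) and of the mitosis markers in DKO against WT (6 and 1). Of tested markers of macrophages (10), endothelium (8), podocytes (6), lymphocytes (7), red cells (5) and fat or adrenal tissue (5), limma and edgeR called 0 in each comparison, with 0 to 6 at an unadjusted p below 0.05 and up to 4 by DESeq2 on 9 libraries. The part of these shifts in cell markers in the values of the 35 genes was not tested.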

How the data were processed

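The 9 libraries were poly(A) RNA of whole kidneys. Per the submitters' processing notes, the tools were STAR 2.5.0 for alignment, HTSeq 0.6.1 for counting and DESeq2 for scaling, and the deposited table holds the authors' normalized counts per gene, a signal on a linear scale. The sources used here do not name the genome build, the annotation or the use of strand. How reads from a stretch that 2 genes both cover were assigned is therefore uncertain (Ift74, Ift57, Ift140, Ttc21b, Bbs1, Bbs4, Arl13b, Inpp5e and Kif17 overlap another gene). Of 22161 rows, 25 are named as dates and were left out. Divided by what 1 read is worth (0.906 to 1.13), 100% of values were whole at a tolerance of 0.05; in WT 1 and KO 1 that value is too near 1 to check, so count tests ran on 7 libraries, and on 9 as an addition chosen after seeing the data.

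The fit was limma 3.58.1 (R 4.3.3; eBayes with intensity trend) on log2(normalized count + 1), 1 mean per group, 9 libraries, genes with a mean of at least 10. Calls are two-sided at a Benjamini-Hochberg adjusted p below 0.05 over the 15717 genes, and intervals are 95%. P-values take mice of a group as independent. A fold change on this scale understates the change of low genes. The 35 genes and the 15 further lists were chosen with earlier results of these data known; 5 listed symbols were matched through synonyms. All 35 genes may be named; those called, or whose groups do not overlap, are given in full, and of other lists up to 6 called genes in order of adjusted p; where none was called the most abundant is named for the RFX list alone. Pkd2, Eml5, Bbs7, Nedd9 and the Serpina1 genes were named for other reasons (a check, position, a motif, a difference opposite to that of the called genes). Levels per kb, positions and neighbours use GENCODE M21, whether or not the authors did; promoters are from RefSeq (GRCm38.p6).

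As alternatives, the pseudocount was 0.1 or 10, the minimum mean was 50 or none, and further fits used TMM and quantile scaling, array quality weights, the 2 groups compared alone, a replicate block, leaving out each mouse, leaving out WT 3 and KO 3 together, and edgeR 4.0.16 and DESeq2 1.42.0 on recovered reads. The procedure was also run on simulated counts, drawn independently for each gene and library, with genes changed in DKO alone. That run held no whole library set apart from its group, so it does not show how the fits behave with libraries such as KO 3 and WT 3. PCR copies were not told apart, so errors are given between mice and not from counts.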

Additional observations from a re-analysis of the deposited data

How the results depend on the processing

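Ift88 had a lower mean in DKO than in KO and WT under each alternative run. The fold against KO kept -0.54 to -0.68 and its call was lost with only the 2 groups compared (-0.60, adjusted p = 0.0957), the replicate block (-0.60, 0.0752) and edgeR on 7 libraries (-0.62, 0.18); against WT it was called with array quality weights (-0.58, 0.00917) and DESeq2 on 9 libraries (-0.53, 6.33e-05). Leaving out 1 mouse gave -0.54 to -0.68 against KO and -0.47 to -0.60 against WT, with 0 to 1 members called in DKO against KO and in DKO against WT and 0 in KO against WT. Members called in DKO against KO were 1, and 0 with only the 2 groups, the block or edgeR on 7 libraries. In DKO against WT they were 0, and 1 with array quality weights or DESeq2 on 9 libraries. In KO against WT they were 0, 7 with array quality weights and 1 without WT 3 and KO 3 together. The cause was not tested.

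Counts over all genes were 62 in DKO against KO, 36 in DKO against WT and 377 in KO against WT. In that order they were 615, 295 and 3219 with array quality weights, 15, 20 and 217 with the replicate block, 10, 10 and 11 with edgeR on 7 libraries, 151, 114 and 296 with DESeq2 on 7 libraries, 473, 385 and 1173 with DESeq2 on 9 libraries, and 311, 115 and 513 without WT 3 and KO 3 together. DKO against KO gave 31 with quantile normalization and 28 with only the 2 groups. Leaving out 1 mouse gave 8 to 155, 18 to 58 and 70 to 437. Replicate numbers are not said to pair mice. Deviations of same-numbered mice correlated at -0.142 to 0.215. Mice of different numbers were not compared in this way, so these values cannot show whether same-numbered mice share more than a number. With 3 mice a group, the intervals of Ttc8 and Kif17 reach beyond a 2-fold difference in comparisons with WT.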
